A study of Mus musculus with 8 samples.

Results

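The genes described here encode the cytosolic ribosomal proteins, the protein parts of the ribosome that translates messenger RNA in the cytoplasm. Members were chosen by symbol. They are the genes named Rpl or Rps followed by a number, the laminin-receptor gene Rpsa and the stalk genes of the Rplp series, without kinases of ribosomal protein S6, listed pseudogenes and the binding protein gene Rps19bp1. Each gene was read from 1 probe set with a single gene symbol, chosen as the brightest on average. This gave 49 of the 18193 genes named on the array, namely 20 of the large subunit, 21 of the small subunit, 2 of the stalk and 6 paralogs. Some well-known members, such as Rpl3, Rpl5, Rpl10, Rplp1 and Rps27a, had no probe set with their symbol alone and were not analysed here.

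The study measured transcripts in CD4 T cells, the helper cells of the immune system, purified from spleens of mice aged 8 weeks. Every culture was activated for 15 h through the T cell receptor with antibodies to CD3 and CD28, and an agent was present for the last 3 h. The 4 groups were cells lacking the IFN-gamma receptor chain IFN-gR1 (KO) with db-cAMP, KO cells with vehicle, wild-type (WT) cells with db-cAMP and WT cells with vehicle, with 2 arrays each. db-cAMP is a membrane-permeable form of cyclic AMP, the second messenger that activates protein kinase A. The titles call the arrays biological replicates but do not say whether they came from separate mice, so p-values measure the spread between these samples. Titles, sources and genotype entries name the KO arrays as KO, and these were followed, although the free-text description of each calls it WT. The labels give neither the KO allele nor the cell types in which the gene is missing.

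Each ribosomal protein sits in the large or the small subunit, and the stalk proteins at the edge of the large subunit recruit translation factors. Most of the genes are expressed in every cell at very high levels, and an activated T cell raises ribosome production before it divides. Their messengers start with a C followed by a run of C and T bases, the 5-prime terminal oligopyrimidine or TOP motif, through which the mTOR pathway and the RNA-binding protein LARP1 control their translation and stability. A few members have a paralog that is expressed in particular tissues or has a role outside the mature ribosome.

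The start regions of members that the results turn on are shown first, because the TOP motif is the sequence feature by which these messengers are recognised. Each line covers 60 bases, 40 before and 20 from the annotated transcription start, read 5-prime to 3-prime along the gene, from RefSeq on build GRCm38.p6. Capitals mark the longest run of 1 C followed by at least 6 bases that are each C or T, searched on the gene's strand with its first base within 10 bases of the start on either side. Rps9, Rps26 and Rpl13a are among the members with the largest increases with db-cAMP in WT cells, and Rplp2 is a stalk gene. Rps6 encodes the target of the S6 kinases. Rpl22l1 is a paralog that followed the main members, and Rpl12 and Rpl7l1 were called lower with db-cAMP in WT cells.
Rps9, chr7:3704001-3704060, plus strand: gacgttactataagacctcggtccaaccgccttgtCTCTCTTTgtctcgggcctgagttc
Rps26, chr10:128626487-128626546, minus strand: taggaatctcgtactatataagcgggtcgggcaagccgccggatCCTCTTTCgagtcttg
Rpl13a, chr7:45128726-45128785, minus strand: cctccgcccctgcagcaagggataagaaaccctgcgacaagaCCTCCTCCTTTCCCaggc
Rplp2, chr7:141447611-141447670, plus strand: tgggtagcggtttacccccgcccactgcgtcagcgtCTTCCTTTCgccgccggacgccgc
Rps6, chr4:86857348-86857407, minus strand: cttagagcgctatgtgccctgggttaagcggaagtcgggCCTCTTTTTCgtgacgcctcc
Rpl22l1, chr3:28805468-28805527, plus strand: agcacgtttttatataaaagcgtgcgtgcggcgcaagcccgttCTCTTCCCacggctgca
Rpl12, chr2:32961672-32961731, plus strand: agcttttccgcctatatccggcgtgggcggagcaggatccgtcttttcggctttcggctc
Rpl7l1, chr17:46782637-46782696, minus strand: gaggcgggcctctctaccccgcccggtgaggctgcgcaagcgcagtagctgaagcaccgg
Of the 43 members with an entry, 21 (48.8%) held such a run, against 3821 of 27025 genes in the whole promoter table (14.1%). Rpl12, Rpl7l1, Rplp0 and Rpsa had none in the window searched. Runs shorter than the minimum of 6 bases after the C are not counted, such as the cttttc just after the start of Rpl12. A match describes these letters only, and a start annotated some bases away would hide one.

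Signals are linear intensities that the authors had scaled per array, and 34 members lay in the brightest 1% of the 12091 genes tested, with mean signals between 46128 and 87789. Of the other 15 members, 13 were tested and Rpl3l and Rps16 did not pass the filter on low values. For 9 of these 15, among them Rps6, Rpl12 and Rps16, a brighter probe set exists that is annotated with several symbols and was not used, so the low signal of the chosen probe set does not give the level of the gene. Ribosomal protein genes also have many near-identical pseudogene copies, and probe sets may bind their transcripts, so values of single members are uncertain to that degree.

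Several features of the arrays moved with genotype. The targeted gene Ifngr1 had signals of 1056 and 1272 in KO cells with db-cAMP and 439 and 378 in KO cells with vehicle. In WT cells it had 7319 and 8201 with db-cAMP and 905 and 873 with vehicle. Within each treatment it was thus lower but not absent on the KO arrays, while KO cells with db-cAMP lay above WT cells with vehicle. The signal below which 99.5% of the probe sets lay was 30523 to 33266 on the KO arrays and 39189 to 49420 on the WT arrays. The 18 probe sets of the spiked hybridization controls, which are added after labelling, had a median log2 difference of -0.66 for KO against WT with db-cAMP and of -0.54 with vehicle. The 24 poly-A control probe sets, which report RNA spiked in before labelling, had mean signals of 4159 to 5834 on the KO arrays and 1441 to 2148 on the WT arrays. Of the CD4 T cell markers, the least bright CD3 gene, Cd3e, had 2197 or more on all arrays and Cd4 itself 253 to 539. The summed signal of 5 CD4 T cell markers ran from 50384 to 53335 on KO arrays and from 54075 to 60504 on WT arrays. That of the CD8 T cell markers Cd8a and Cd8b1 ran from 270 to 335 on KO arrays and from 367 to 516 on WT arrays, and that of 4 B cell markers from 308 to 400 on KO arrays and from 457 to 593 on WT arrays. In these lists 1 of 2 and 2 of 3 tested genes were called lower in KO cells with db-cAMP, and with vehicle 1 of 2, Cd8b1, and 0 of 3. Of the 5 CD4 T cell markers 3 were called for KO against WT with db-cAMP (Cd3e and Cd5 higher, Cd3d lower) and 2 with vehicle (Cd3d and Cd3g lower). The part of these markers in the results below was not tested. The B cell gene Cd79a stayed at or below 54.7 on all arrays and Ms4a1 at or below 318.

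The question of whether loss of the interferon receptor chain alters these genes without db-cAMP is addressed by KO against WT cells with vehicle. All 34 bright members had lower signals in KO cells, by a median log2 difference of -0.53, as for Rpl22 at 0.694 of the WT level. Over all tested members 36 of 47 were called lower and 0 higher at an adjusted p under 0.05 (limma), while 5.78% of all 12091 genes were called lower and 5.06% higher, 10.8% in either direction. The count of calls was 1 without the intensity trend in the variance, 17 without KO vehicle replicate 1 and 21 without WT vehicle replicate 2. The median over the 47 members was -0.51 and over all genes -0.01. In bulk RNA of this kind, fewer cells of a type and less RNA per cell cannot be told apart.

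Rpl10a, a large subunit protein that contacts transfer RNA near the exit site, had signals of 46375 and 50799 in KO cells and 77027 and 85688 in WT cells with vehicle. The groups did not overlap, and the log2 difference was -0.74 ± 0.08 (SE, adjusted p = 6.29e-05), the lowest among the bright members. Rplp0, which anchors the stalk on the large subunit, had 51804 and 50657 in KO cells and 76398 and 81888 in WT cells, a difference of -0.63 ± 0.11 (adjusted p = 0.00201). Its partner Rplp2 differed by -0.64 ± 0.12 (adjusted p = 0.00471). In the small subunit, Rps3, which lies at the messenger entry channel and also acts in DNA repair, had 40422 and 40149 in KO cells and 59133 and 64562 in WT cells. Its difference was -0.62 ± 0.08 (adjusted p = 0.000395), and that of Rps2, another entry-channel protein, was -0.61 ± 0.10 (adjusted p = 0.00136). The KO signals of both stalk genes and both entry-channel genes lay below every WT vehicle signal.

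The lower signals extended over all the bright members. Their differences ran from -0.74 to -0.31, with Rps18 at the shallow end, and both KO vehicle arrays lay below both WT vehicle arrays for 34 of 34, as they did for 26.6% of all genes and 84 of the 87 other genes in the brightest 1%. The 15 large subunit members in this class had a median of -0.53 and the 17 small subunit members one of -0.52. Rpl11, which binds the p53 regulator MDM2 when ribosome assembly is disturbed, differed by -0.54 ± 0.11 (adjusted p = 0.00527). Rpl22, on which mouse alpha-beta T cell development is known to depend, differed by -0.53 ± 0.10 (adjusted p = 0.0052). Rps19, Rps26 and Rps14, genes mutated or deleted in human marrow failure syndromes, differed by -0.51 ± 0.08, -0.55 ± 0.11 and -0.50 ± 0.12 (adjusted p = 0.00161, 0.00491 and 0.0142).

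Other bright genes were lower on the KO arrays too. Of the 87 genes in the brightest 1% that are not ribosomal proteins, 63 were called lower and 0 higher in KO cells with vehicle, with a median of -0.36. The beta-actin gene Actb had 42745 and 46820 in KO cells and 57057 and 62008 in WT cells, a log2 difference of -0.41. Tmsb4x, Eef1a1, Tpt1 and B2m, also in the brightest 1%, had larger differences of -0.46, -0.53, -0.55 and -0.90. Outside the members, the median difference was 0.00 in the lower 50% of genes by signal, -0.01 between the 80th and 90th percentiles, -0.15 between the 95th and 98th and -0.36 above the 99th. Genotype and the brightness-dependent shift of the arrays cannot be told apart here, since every KO array shows it.

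**Figure D1:**
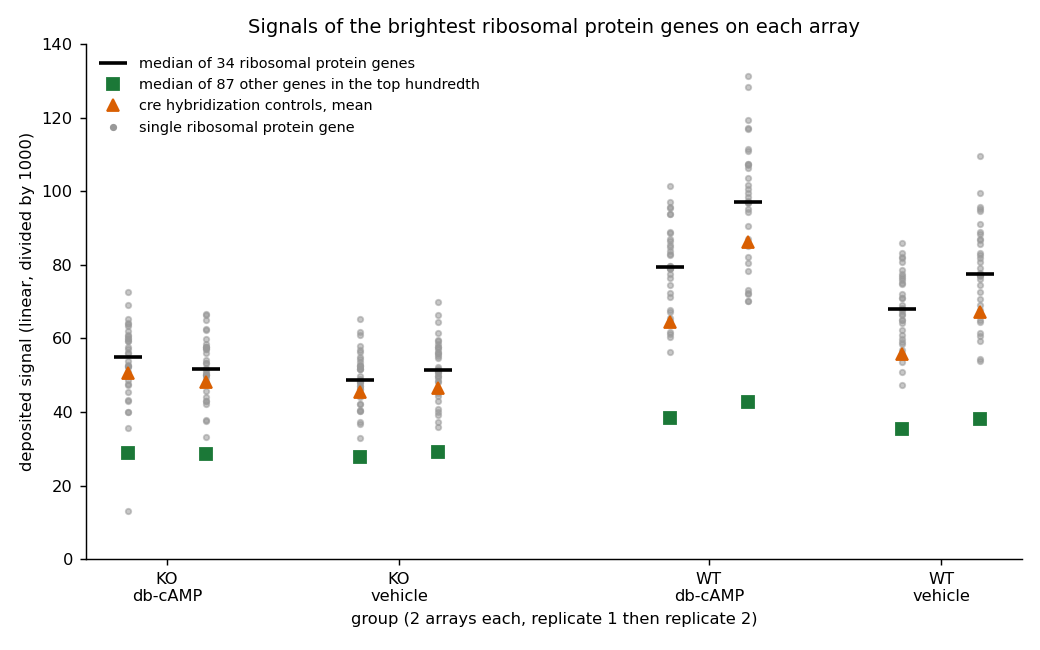
Deposited linear signal, divided by 1000, of each of the 34 brightest ribosomal protein genes (grey points) on each of the 8 arrays, with their median (black bars), the median of 87 other genes in the brightest 1% (green squares) and the mean of the cre hybridization control probe sets (orange triangles). Medians of the ribosomal protein genes run from 48643 to 54839 on the KO arrays and from 68093 to 97173 on the WT arrays, and the other markers are lower on the KO arrays too.

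The members were also set against other bright signals of the same array. The median bright member had 1.90 and 1.81 times the median signal of the 87 other bright genes in KO cells with db-cAMP, 1.75 and 1.76 times in KO cells with vehicle, 2.06 and 2.27 times in WT cells with db-cAMP and 1.92 and 2.04 times in WT cells with vehicle. All 4 KO arrays lay below all 4 WT arrays. The 2 sets differ in brightness, with medians per array of 48643 to 97173 for the members and 27824 to 42821 for the 87 other genes. KO signals fell further below WT signals in brighter bands, and the part of this in the ratios was not tested. Against the mean of the 4 cre control probe sets, which have signals in the same range, the ratio was 1.07 to 1.11 on the KO arrays and 1.13 to 1.23 on the WT arrays. The KO ratios again lay below the WT ratios. Within WT cells the ratio to the cre controls was 1.23 and 1.13 with db-cAMP and 1.22 and 1.16 with vehicle, which overlap.

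With db-cAMP in both genotypes, KO cells again had lower signals, by a median of -0.72 over the 34 bright members. Of the 47 tested members 36 were called lower and 3 higher, while 13.3% of all genes were called lower and 15.9% higher, 29.2% in either direction. For all 34 bright members, both KO arrays lay below both WT arrays, as for 32.0% of all genes and 85 of the 87 other bright genes, and all 34 were called lower. Among the 87 other bright genes 72 were called lower and 0 higher, with a median of -0.46. This comparison shares no array with the one under vehicle, but all its KO arrays have the same shift of bright signals.

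Rps26, which contacts messenger RNA upstream of the start codon, had 35752 and 33341 in KO cells and 56446 and 73113 in WT cells with db-cAMP. Its log2 difference of -0.90 ± 0.11 (adjusted p = 3.4e-05) was among the lowest of the bright members. Rplp0 had 59176 and 48048 in KO cells and 86461 and 106400 in WT cells, a difference of -0.85 ± 0.11 (adjusted p = 5e-05). Rps2 differed by -0.84 ± 0.10 (adjusted p = 2.59e-05). The KO arrays lay below the WT arrays for each of the 3.

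Rpl41, the smallest ribosomal protein, had the lowest fitted value of the bright members, -1.89 ± 0.40 (adjusted p = 0.00251), and 1 array set it. Its chosen probe set had 13017 and 49961 in KO cells and 83040 and 107440 in WT cells with db-cAMP. KO db-cAMP replicate 1 thus read far below every other array, while the 47055 and 51117 of KO cells with vehicle were close to the other KO db-cAMP array. A second bright probe set of Rpl41 had 31934 and 30718 in KO cells and 48088 and 56242 in WT cells, with no such drop. Without KO db-cAMP replicate 1 the difference was -0.92 ± 0.14 (adjusted p = 0.000572).

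**Figure D2:**
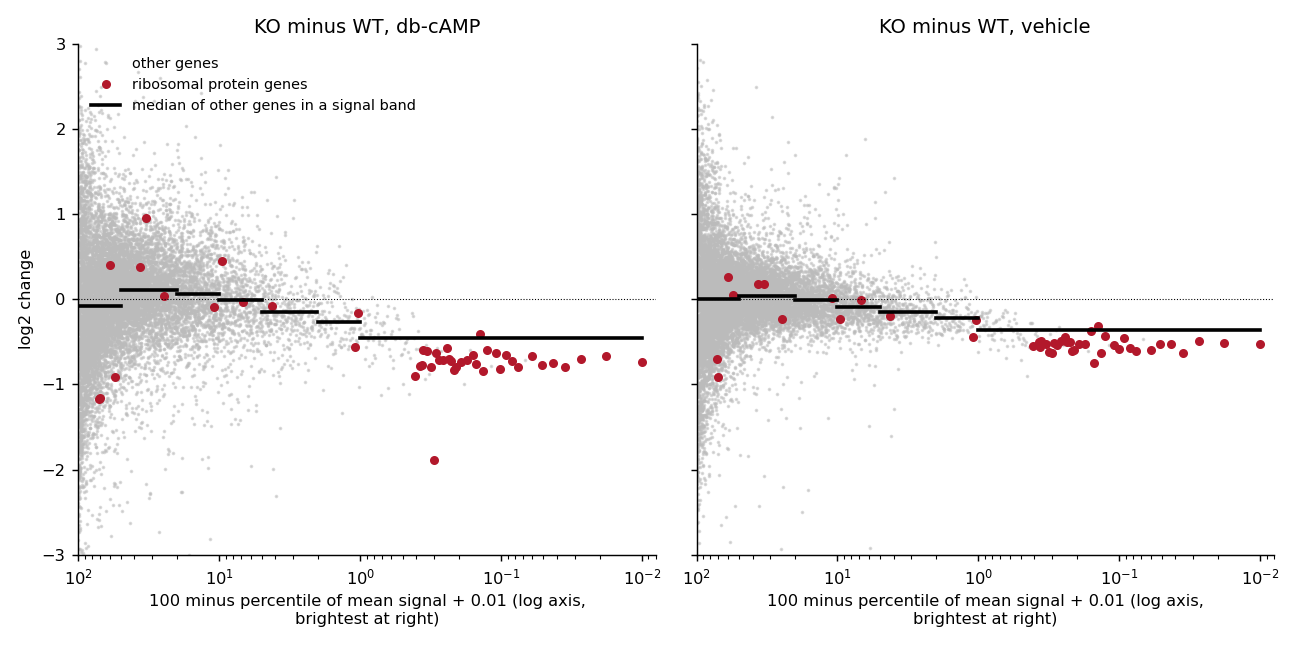
Log2 difference of KO minus WT cells with db-cAMP (left) and with vehicle (right) against mean signal, for the ribosomal protein genes (red) and all other genes tested (grey). The horizontal axis is 100 minus the signal percentile plus 0.01 on a log axis, so the brightest genes are at the right. Black bars are medians of the other genes in a signal band, which go down to -0.46 with db-cAMP and -0.36 with vehicle in the last band, where most red points lie below the bar. Differences beyond the vertical axis are not drawn.

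db-cAMP against vehicle in WT cells asks what cyclic AMP does where the interferon receptor is intact. All 34 bright members had slightly higher mean signals, by log2 changes of 0.15 to 0.35 with a median of 0.27. An example is Rpsa, the laminin-receptor gene of the small subunit, at 1.22-fold. Of the 47 tested members 19 were called higher and 2 lower, while 16.4% of all genes were called higher and 18.6% lower, 35.0% in either direction. The members' median was 0.25 and that of all genes 0.01. Among the bright members 18 were called higher and 0 lower, and in 25 of 34 both db-cAMP arrays lay above both vehicle arrays, as in 32.2% of all genes and 41 of the 87 other bright genes. The 87 other bright genes had 28 called higher and 3 lower, with a median of 0.13.

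Rps9, a small subunit protein whose bacterial counterpart influences decoding accuracy, had 61741 and 72313 with db-cAMP and 50768 and 54372 with vehicle. It was higher by 0.35 ± 0.08 (adjusted p = 0.00403), the largest called increase. Rps26 had 56446 and 73113 with db-cAMP and 47437 and 53970 with vehicle, a change of 0.34 ± 0.11 (adjusted p = 0.0237). The X-linked small subunit gene Rps4x changed by 0.33 ± 0.11 (adjusted p = 0.0289), Rpl13a, which in human monocytes is released from the ribosome to silence inflammatory messengers, by 0.29 ± 0.10 (adjusted p = 0.0348) and Rpsa by 0.29 ± 0.09 (adjusted p = 0.0236). Rplp0 and Rplp2 had changes of the same size, 0.28 ± 0.11 and 0.28 ± 0.12, which did not pass the test (adjusted p = 0.0588 and 0.0978). For Rps9 and Rps26 the db-cAMP arrays lay above both vehicle arrays, by less than the gap between the db-cAMP arrays themselves.

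The increase leaned on single arrays. WT db-cAMP replicate 2 had the highest median of the bright members, 97173, against 79426 on replicate 1, while the WT vehicle arrays had 77642 and 68093. Without WT db-cAMP replicate 2 the median over the 47 members was 0.12 in place of 0.25. Without WT vehicle replicate 1 it was 0.16, and without WT db-cAMP replicate 1 it was 0.40. Without the intensity trend 2 members were called, both lower, in place of 19 higher and 2 lower. In that setting 1563 of 12091 genes were called higher and 1675 lower. Other features of the arrays moved with db-cAMP as well. The mean signal of the 18S ribosomal RNA control probe sets was 38701 and 31397 with db-cAMP and 24553 and 26853 with vehicle in KO cells, and 37627 and 36892 with db-cAMP and 28574 and 25511 with vehicle in WT cells, without overlap in either genotype. The NK cell marker Klrd1 had 931 and 928 with db-cAMP and 436 and 379 with vehicle in KO cells, and 760 and 811 with db-cAMP and 509 and 379 with vehicle in WT cells, called higher in both (adjusted p = 0.000258 in KO cells and 0.000719 in WT cells), while the NK gene Ncr1 stayed at or below 35.7 on all arrays. Of the CD4 T cell markers 0 of 5 were called with db-cAMP in KO cells and 3 of 5 lower in WT cells (Cd3e, Cd3g and Cd5). The part of these features in the db-cAMP changes was not tested. The hybridization controls moved the same way as the members, by 0.09 with db-cAMP in KO cells and 0.24 in WT cells.

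In KO cells db-cAMP was followed by no called change in any bright member. Of the 47 members 0 were called higher and 1 lower, while 4.70% of all genes were called higher and 3.68% lower, 8.38% in either direction. The median was 0.06 over the bright members, with a range from -0.94 for Rpl41 to 0.16. In 18 of 34 both db-cAMP arrays lay above both vehicle arrays and in 0 below, where 26.0% of all genes lay above and 26.2% below, and 30 of the 87 other bright genes above and 10 below. None of the 18 passed the test. Rps26 had 35752 and 33341 with db-cAMP and 32936 and 36029 with vehicle, which overlap, for a change of 0.00 ± 0.11. Rps9 had 39958 and 37908 with db-cAMP and 36770 and 37256 with vehicle, a log2 difference of 0.07 ± 0.08 that did not pass the test.

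Whether the db-cAMP effect differed between genotypes was tested as the KO effect minus the WT effect. None of the 34 bright members passed, although their median was -0.20, against -0.09 for the other bright genes. Over all members 2 of 47 were called, both positive, while 6.70% of all genes were called positive and 5.09% negative, 11.8% in either direction. The 2 were Rpl7l1 and Rpl12, the latter read from a dim probe set. Rps26 had the value -0.34 ± 0.15 and did not pass (adjusted p = 0.193).

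**Figure D3:**
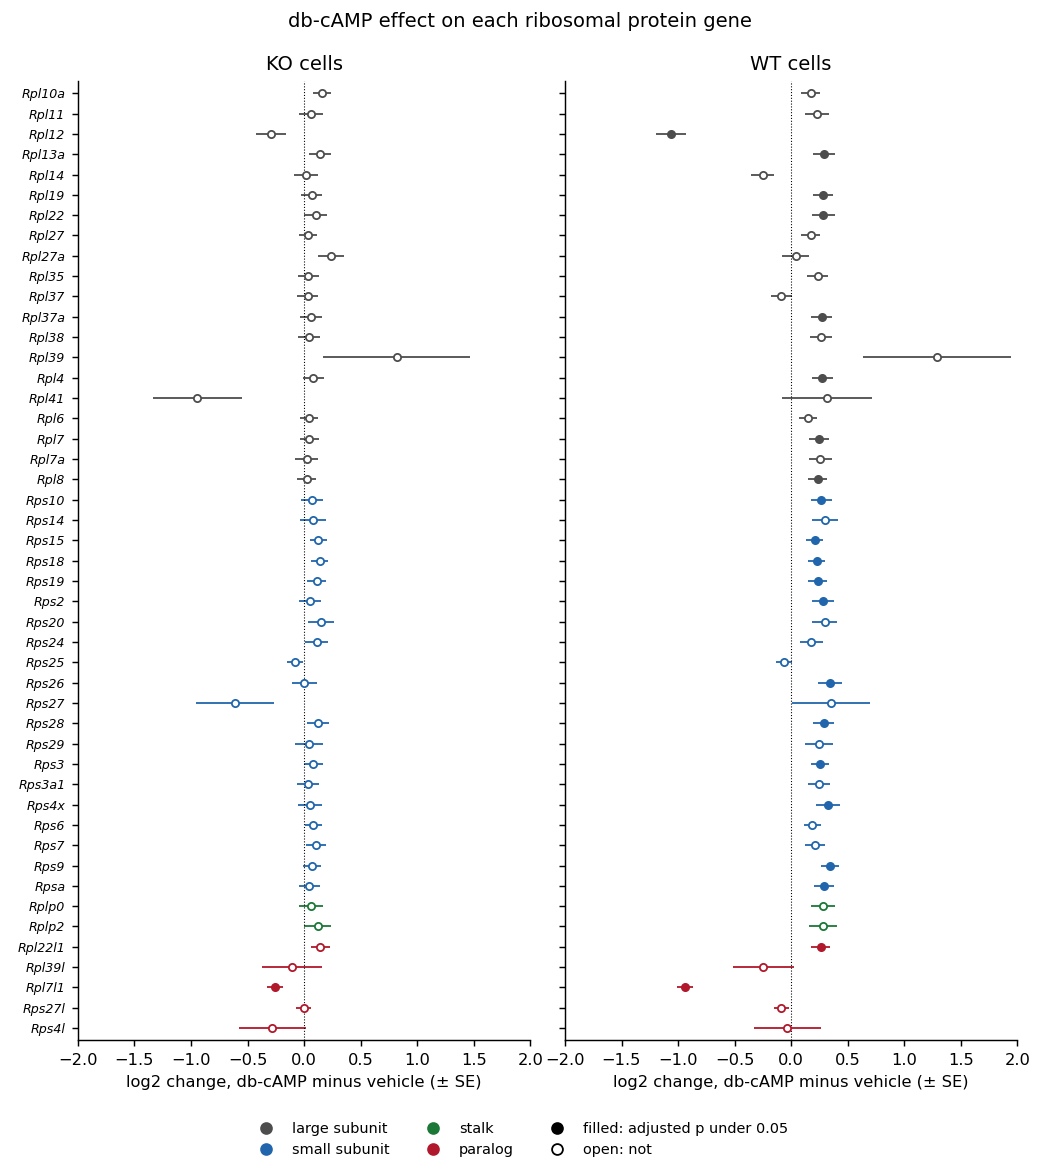
Log2 change with db-cAMP against vehicle in KO cells (left) and WT cells (right) for the 47 ribosomal protein genes tested, ordered by subunit, stalk and paralog class, with standard errors from the limma fit over all 8 arrays. Filled points passed an adjusted p under 0.05, which are 1 in KO cells and 21 in WT cells, and in both panels Rpl12 and Rpl7l1 lie left of 0.

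The paralogs behaved differently from one another. Rpl7l1, a paralog of Rpl7 whose yeast counterpart is a ribosome assembly factor rather than a part of the mature ribosome, had the lowest adjusted p of the members with db-cAMP in WT cells. It had 4115 and 4080 in KO cells with db-cAMP, 4845 and 4955 in KO cells with vehicle, 3012 and 2986 in WT cells with db-cAMP and 5728 and 5765 in WT cells with vehicle. No group overlapped another, and WT cells with db-cAMP were lowest.

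With db-cAMP, Rpl7l1 fell by 0.26 ± 0.07 on the log2 scale in KO cells (adjusted p = 0.035), a call that was lost when any single KO array was left out. In WT cells it fell by 0.94 ± 0.07 (adjusted p = 1.88e-07), to 0.522 of the vehicle level. The difference between the 2 effects was 0.68 ± 0.10 (adjusted p = 0.000577). KO cells had more of it than WT cells with db-cAMP, by 0.45 ± 0.07 (adjusted p = 0.000254), and slightly less with vehicle, by -0.23 ± 0.07 (adjusted p = 0.0496), a difference that turned to 0.14 when arrays were scaled on the other bright genes. Its 2 other probe sets changed by -0.62 and -1.16 with db-cAMP in WT cells, both called lower in the fit over all probe sets (adjusted p = 0.00142 and 0.000169).

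Rpl22l1, the paralog of Rpl22, followed the bright members. It had 23382 and 22116 in KO cells with db-cAMP, 19917 and 21302 in KO cells with vehicle, 30711 and 36682 in WT cells with db-cAMP and 28380 and 27561 in WT cells with vehicle. It was called higher with db-cAMP in WT cells, by 0.26 ± 0.08 (adjusted p = 0.0257), and lower in KO than in WT cells, by -0.56 ± 0.08 with db-cAMP and -0.44 ± 0.08 with vehicle (adjusted p = 0.000201 and 0.00428).

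Rps27l, a paralog of Rps27 induced by p53, had similar signals in both treatments. They were 24618 and 24354 in KO cells with db-cAMP, 24357 and 24763 in KO cells with vehicle, 27281 and 27464 in WT cells with db-cAMP and 27998 and 30178 in WT cells with vehicle. With db-cAMP it changed by 0.00 ± 0.07 in KO cells and -0.09 ± 0.07 in WT cells, neither of which passed. KO cells with vehicle were lower by -0.24 ± 0.07 (adjusted p = 0.0299), but the sign turned under quantile normalization (0.01), cyclic loess (0.02) and scaling on the other bright genes (0.12). Under quantile normalization it was called lower with db-cAMP in WT cells, by -0.29 ± 0.05 (adjusted p = 0.000264), and under scaling on the other bright genes by -0.23 ± 0.07 (adjusted p = 0.0162).

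The remaining paralogs had low signals. Rps4l was between 75.6 and 113 on KO arrays and between 178 and 207 on WT arrays, and was called lower in KO cells with db-cAMP by -1.16 ± 0.30 (adjusted p = 0.00941). With vehicle its value of -0.91 ± 0.30 did not pass (adjusted p = 0.0707). Rpl39l had signals from 173 to 374 over all arrays with no called change, and Rpl3l, the muscle form of Rpl3, lay at or below 36.3 on every array.

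Rpl12, which lies at the base of the stalk, was read from a dim probe set. It had 979 and 1210 in KO cells with db-cAMP, 1260 and 1416 in KO cells with vehicle, 606 and 518 in WT cells with db-cAMP and 1093 and 1265 in WT cells with vehicle. WT cells with db-cAMP lay below all other arrays, with a change of -1.06 ± 0.13 (adjusted p = 3.02e-05). With db-cAMP this probe set read higher in KO than in WT cells, by 0.95 ± 0.13 (adjusted p = 0.000128). The KO effect minus the WT effect was 0.77 ± 0.19 (adjusted p = 0.0183). A several-symbol probe set naming Rpl12 was not used and had a mean signal of 76028, so these values hold for the dim probe set only. Rps6 was also dim, with 3968 and 3899 in KO cells with db-cAMP, 3881 and 3570 in KO cells with vehicle, 4277 and 4135 in WT cells with db-cAMP and 3626 and 3753 in WT cells with vehicle, and passed no test.

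**Figure D4:**
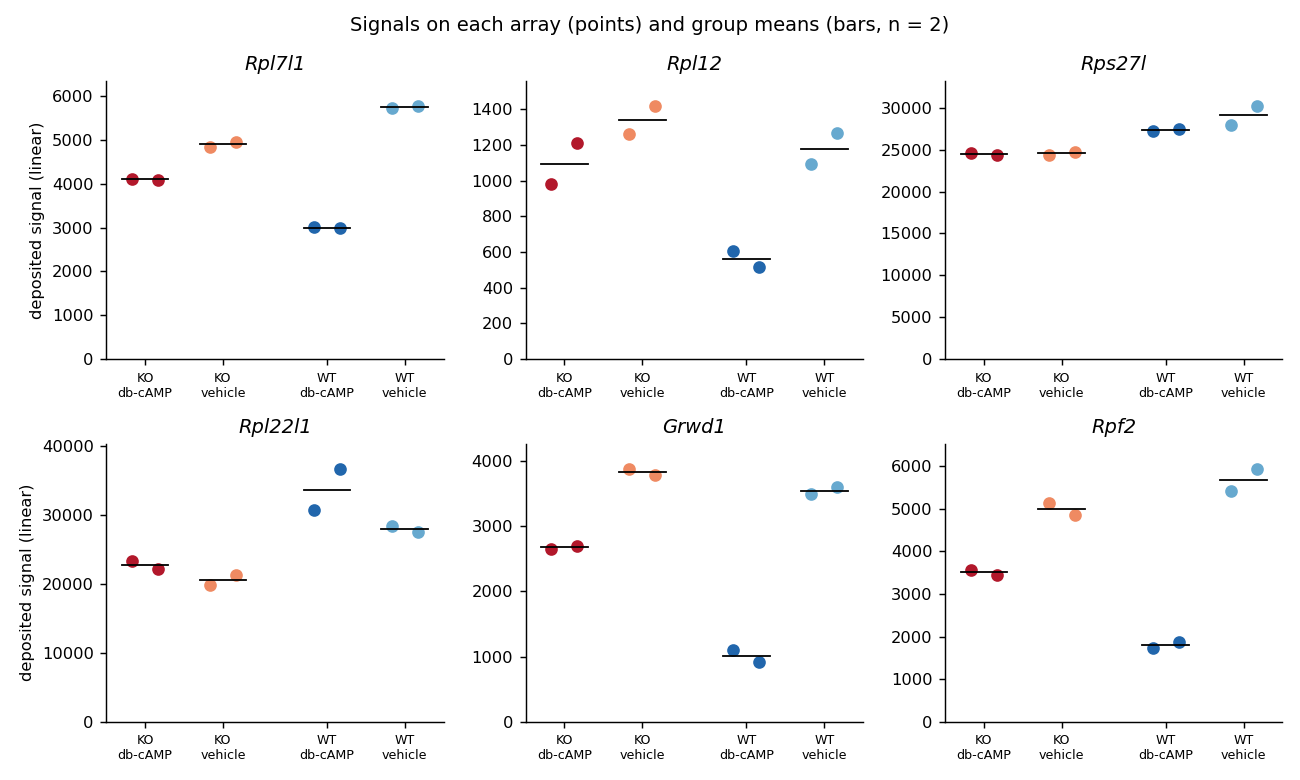
Deposited linear signals of 4 members (Rpl7l1, Rpl12, Rps27l and Rpl22l1) and of the ribosome assembly genes Grwd1 and Rpf2 on each array (points) with group means (bars, n = 2). Rpl7l1 has 4115 and 4080 in KO cells with db-cAMP and 3012 and 2986 in WT cells with db-cAMP, below 4845 and more in both vehicle groups, and Rpl12, Grwd1 and Rpf2 are also lowest in WT cells with db-cAMP.

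Bright and dim probe sets of the family moved apart. Of 105 member probe sets 100 were tested among 21956 in all, of which 70 from 36 genes had a mean signal over 10000 and 30 from 22 genes were dimmer. With db-cAMP in WT cells 29 bright ones were called higher and 1, of Rps27l, lower, against 0 higher and 10 lower among the dim ones, where 13.8% of all probe sets were called higher and 15.2% lower. For KO against WT cells with db-cAMP 66 bright ones were called lower and 0 higher, against 1 lower and 8 higher among the dim ones, where 10.9% of all were called lower and 15.5% higher. With vehicle 64 bright ones were called lower and 0 higher, against 0 lower and 2 higher among the dim ones, with 4.60% of all called lower and 6.34% higher.

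Within single genes, of which 11 had a bright and a dim probe set, the split was seen in some. With db-cAMP in WT cells a bright probe set was called higher in 9 of the 11 and a dim one lower in 5, and in 3 genes both calls were made. For KO against WT cells with db-cAMP a bright one was called lower in 11 and a dim one higher in 3, and with vehicle a dim one was called higher in 1. The dim probe sets of Rpl37a and Rpsa had values of -0.50 and -0.51 for KO against WT with db-cAMP, the sign of the bright ones, and did not pass. A dim probe set of Rps9 had 300 and 338 in WT cells with db-cAMP and 602 and 683 in WT cells with vehicle, a log2 change of -0.998 (adjusted p = 0.000117), while the bright one was higher. A dim probe set of Rpl41 had 1706 and 1842 in KO cells with db-cAMP and 862 and 639 in WT cells with db-cAMP, higher by 1.25 in KO cells (adjusted p = 1.45e-05), while both bright ones were lower. Which stretch of each transcript the dim probe sets read was not analysed here. A dim probe set of Rpl22 was called lower with db-cAMP in WT cells, by -0.71 in the limma fit over all probe sets (adjusted p = 0.000732). For KO against WT it had 0.18 with db-cAMP and 0.15 with vehicle, which did not pass. Values above of Rps9, Rpl41, Rpl22 and other members with both kinds therefore hold for their bright probe sets.

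The size of the genotype difference depended on how the arrays were scaled. With signals as deposited the bright members' median for KO against WT cells was -0.72 with db-cAMP and -0.53 with vehicle. Scaling each array to an equal median of the 87 other bright genes left -0.22 and -0.16, with 26 of 34 called lower with db-cAMP and 14 of 34 with vehicle, where 3.06% and 0.976% of all genes were called lower. The same scaling moved the median of all genes to 0.49 and 0.36. The members were thus lower relative to the 87 genes, whose median signal is lower, in a setting where most genes read higher in KO cells. Cyclic loess gave -0.24 and -0.14, and quantile normalization 0.00 and -0.02. Under quantile normalization 5 of 34 were called lower and 3 higher with db-cAMP, where 1664 of 12093 genes were called lower and 1694 higher. With vehicle 1 of 34 was called lower and 1 higher, where 508 of 12093 genes were called lower and 485 higher. These counts are near the shares over all genes or below them.

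For db-cAMP in WT cells the bright members' median of 0.27 became 0.12 on the other bright genes, 0.13 under cyclic loess and 0.00 under quantile normalization. The members make up 34 of the 121 genes in the brightest 1%. Quantile normalization gives every array the same set of values over all probe sets, and its part in the smaller medians was not tested. Rps9, Rps26 and Rps4x were still called higher in WT cells on the other bright genes, by 0.20, 0.20 and 0.19 (adjusted p = 0.015, 0.0414 and 0.047), where 10.6% of all genes were called higher and 23.1% lower. The fall of Rpl7l1 in WT cells was -0.86 under quantile normalization and -1.08 on the other bright genes, and its difference between genotypes stayed called under both, at 0.63 and 0.81.

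**Figure D5:**
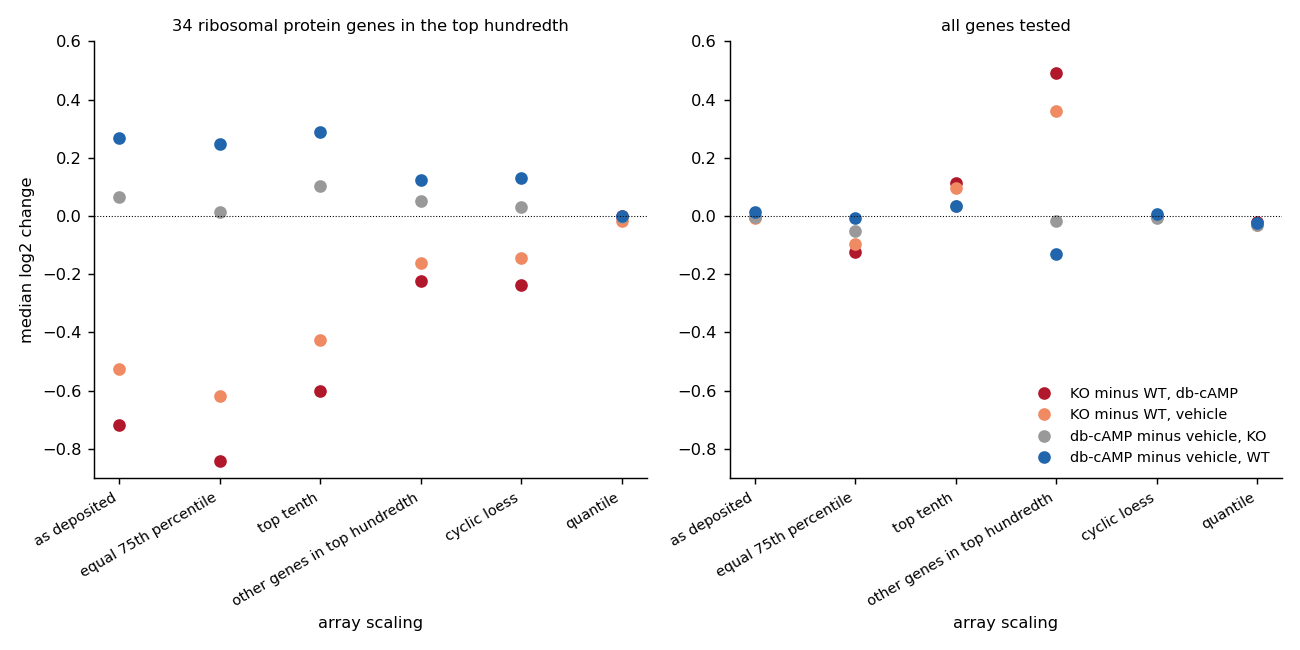
Median log2 difference of the 34 brightest ribosomal protein genes (left) and of all genes tested (right) under 6 ways of scaling the arrays, for KO minus WT with each treatment and for db-cAMP minus vehicle in each genotype. The ribosomal protein medians of KO minus WT with db-cAMP go from -0.84 at an equal 75th percentile through -0.72 as deposited to 0.00 under quantile normalization, and scaling on the other bright genes moves the median of all genes to 0.49.

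Genes that work with ribosomal proteins were read from lists chosen for their function. Fau, whose product is processed to the small subunit protein eS30 but whose symbol falls outside the rule, moved with the bright members. It lies in the same brightest 1%, at signal percentile 99.63. It was higher by 0.21 ± 0.07 with db-cAMP in WT cells (adjusted p = 0.0253) and lower in KO than in WT cells by -0.59 ± 0.07 with db-cAMP and -0.44 ± 0.07 with vehicle (adjusted p = 2.21e-05 and 0.00108). Of 15 other genes with TOP messengers, 0 were called higher and 0 lower with db-cAMP in KO cells, where 4.70% of all genes were called higher and 3.68% lower. In WT cells 5 were called higher and 1 lower (median 0.19), where 16.4% of all genes were called higher and 18.6% lower. Against WT cells, KO cells had 1 higher and 12 lower with db-cAMP (median -0.51) and 0 higher and 10 lower with vehicle (median -0.33), where 13.3% and 5.78% of all genes were called lower. Signal percentiles of the 15 ran from 94.7 for Eif4b to 99.9 for Eef1a1. Eif4b was the 1 called higher with db-cAMP, by 0.29 ± 0.08 (adjusted p = 0.0133). Hnrnpa1 (percentile 97.0) and Nap1l1 (98.4) had -0.09 and -0.08 and were not called. The part of brightness in these values was not tested. The elongation factor gene Eef2 changed by 0.38 ± 0.07 (adjusted p = 0.000399) and Tpt1, a highly expressed growth-related TOP gene, by 0.35 ± 0.10 (adjusted p = 0.0108) with db-cAMP in WT cells.

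Dedicated chaperones of ribosomal proteins and their assembly partners went the other way from the bright members in WT cells. Of 10 tested, 4 were called lower and 0 higher with db-cAMP in KO cells, with a median of -0.24, and 9 lower and 1 higher in WT cells, with a median of -1.07. Of all genes 3.68% were called lower in KO cells and 18.6% in WT cells. Grwd1, in yeast the chaperone of Rpl3, had 2657 and 2701 in KO cells with db-cAMP, 3880 and 3782 in KO cells with vehicle, 1098 and 913 in WT cells with db-cAMP and 3489 and 3602 in WT cells with vehicle. Its changes were -0.52 ± 0.09 in KO cells (adjusted p = 0.0032) and -1.82 ± 0.09 in WT cells (adjusted p = 6.54e-09). Rpf2, which with Rrs1 places the 5S particle in the large subunit, changed by -0.51 ± 0.08 in KO cells and -1.65 ± 0.08 in WT cells (adjusted p = 0.00121 and 4.12e-09). Rrs1 had -0.23 ± 0.11 in KO cells, which did not pass, and changed by -1.43 ± 0.11 in WT cells (adjusted p = 2.77e-07).

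The test of the difference between genotypes was passed by 8 of the 10, all with a positive difference, as for 6.70% of all genes, and the median difference was 0.87. Tsr2, in yeast the chaperone of Rps26, differed between genotypes by 0.91 ± 0.13 (adjusted p = 0.000523), and Ltv1, which in yeast holds Rps3 during assembly, by 0.86 ± 0.11 (adjusted p = 0.000334). For KO against WT cells 8 were called higher and 0 lower with db-cAMP, where 15.9% of all genes were called higher, and 0 higher and 1, Tsr2, lower with vehicle. These genes lie between signal percentiles 69.7 and 95.6. Genes outside the members between the 90th and 95th percentiles had a median of -0.11 with db-cAMP in WT cells. The part of brightness in the values of the chaperones was not tested. Bccip had the smallest called fall in WT cells, -0.30 ± 0.08 (adjusted p = 0.0113), and Aamp was the one called higher, by 0.34 ± 0.09 (adjusted p = 0.0101).

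Of 14 tested regulators of TOP messengers and of ribosomal protein S6, 2 were called higher and 1 lower with db-cAMP in KO cells, where 4.70% of all genes were called higher and 3.68% lower. In WT cells 3 were called higher and 3 lower, which is near the 16.4% and 18.6% of all genes. Larp1, which binds the TOP motif, had 3816 and 3937 in KO cells with db-cAMP, 4803 and 4752 in KO cells with vehicle, 2368 and 2126 in WT cells with db-cAMP and 4848 and 4600 in WT cells with vehicle. It fell by 0.30 ± 0.08 on the log2 scale in KO cells and by 1.07 ± 0.08 in WT cells (adjusted p = 0.0312 and 1.78e-07), with a difference of 0.77 ± 0.11 (adjusted p = 0.000583). Rheb, which activates mTOR, had a log2 difference of 0.02 ± 0.07 with db-cAMP in KO cells and was higher in WT cells by 0.53 ± 0.07 (adjusted p = 5.73e-05). Pdcd4, an inhibitor of translation initiation, was higher with db-cAMP in both, by 0.47 ± 0.08 in KO cells and 0.62 ± 0.08 in WT cells (adjusted p = 0.00236 and 4.02e-05), and Rps6ka3, a ribosomal S6 kinase, by 0.54 ± 0.08 in each (adjusted p = 0.00095 in KO cells and 0.000161 in WT cells).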

How the data were processed

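Total RNA of 8 cultures was hybridised to Affymetrix arrays. Each probe set has 1 deposited intensity per array on a linear scale, computed with MAS5 per the submitters' processing notes (version not given in the sources used). A trimmed mean of 500 on every array shows that the authors' intensity values were scaled per array, so total RNA per cell is not measured. With 2 arrays per group, the number of arrays limits precision. The table holds 45101 probe sets, 64 of them controls, and the platform annotation gives 34945 a single symbol and 932 several. Entrez identifiers of 34741 matched RefSeq on GRCm38.p6, and 0 symbols changed.

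An offset of 5.48, the 10th percentile of the whole table, was added before log2, which understates changes of dim genes. A gene's brightest probe set by mean log2 stood for it. Genes above the array median on at least 2 arrays were kept (12091). limma 3.58.1 in R 4.3.3 fitted 1 term per group over all 8 arrays (eBayes with an intensity trend, residual degrees of freedom 4, median prior degrees 9). Each adjusted p is limma's after Benjamini-Hochberg adjustment over all genes tested, and a gene is called at an adjusted p under 0.05. Errors of log2 values are standard errors of the fit. The fit was tested on simulated data. There were 5 comparisons, db-cAMP against vehicle in each genotype, KO against WT with each treatment, and the KO effect minus the WT effect. Comparisons share arrays and are given side by side only. Python 3.11.15 with matplotlib 3.10.9 drew the figures.

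Members, gene lists and marker lists were chosen with earlier results of these data known. Named genes are the 5 largest increases and 5 largest decreases among the called members of each comparison, a set of members of known function and all paralogs, and up to 4 called genes of each companion list per comparison. Rps18, Actb, Tmsb4x, B2m, Eif4b, Hnrnpa1, Nap1l1, Bccip and Aamp were named after their values were seen. Alternatives were 5 other scalings, 2 other offsets, no filter, no intensity trend, other choices of probe set, the replicate number as a block, only the groups compared, and leaving out each array. Scaling on the other bright genes and leaving out 2 arrays together were added after the values were seen.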

Additional observations from a re-analysis of the deposited data

Results flagged for a closer look

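2 members had a db-cAMP effect that differed between genotypes by the interaction test in limma. Rpl7l1 had a KO effect minus WT effect of 0.679 ± 0.097 (SE, log2, adjusted p = 0.000577), since it fell by less in KO than in WT cells. Rpl12 had 0.767 ± 0.189 (adjusted p = 0.0183), read from a dim probe set. Without single arrays the adjusted p of Rpl12 reached 0.0977, while Rpl7l1 passed in each of the alternatives run.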

How the results depend on the processing

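Offsets of 1 and 50, the choice of probe set by linear mean and the removal of _x_at and _s_at probe sets kept every median within the spread between arrays and every count of called members within 1.5 times. Scaling and the variance model moved them. With db-cAMP in WT cells 21 members were called, 19 of them higher. The number became 12 (10 higher) at an equal 75th percentile, 3 (0 higher) under quantile normalization and 10 (7 higher) under cyclic loess. Of all genes, 1859 of 12093 were called higher and 2304 lower at the 75th percentile. Quantile normalization gave 1887 of 12093 higher and 2297 lower, and cyclic loess 2121 of 12091 and 2050. The number of members was 7 (3 higher) on the other bright genes, 4 (2 higher) without the filter and 2 (0 higher) without the intensity trend. Of all genes, 1283 of 12091 were called higher and 2792 lower on the other bright genes. Without the filter 1840 of 18193 were higher and 2106 lower, and without the trend 1563 of 12091 and 1675. With the mean of probe sets 9 members were called (6 higher), where 1393 of 10752 genes were called higher and 1545 lower. With only the groups compared there were 4 (2 higher), where 1755 of 12091 genes were called higher and 1946 lower. With every probe set 40 of 100 were called, where 3037 of 21956 in all were called higher and 3348 lower. The members' median became -0.000835 under quantile normalization, 0.121 under cyclic loess and 0.106 on the other bright genes. In KO cells the 1 call became 0 on the top 10%, on the other bright genes, without the trend and with the replicate block. For KO against WT with vehicle the 36 became 2 (median -0.0194) under quantile normalization, 7 (-0.139) under cyclic loess, 18 (-0.147) on the other bright genes, 1 without the trend and 66 of 100 with every probe set. Of all genes, 508 were called lower and 485 higher under quantile normalization, and 460 and 542 under cyclic loess. On the other bright genes 118 were lower and 3694 higher, and without the trend 101 and 150. With every probe set 1010 of 21956 were lower and 1391 higher. For KO against WT with db-cAMP the 39 became 13 of 47 under quantile normalization (median 0) and 75 of 100 with every probe set. Under quantile normalization 1664 of 12093 genes were called lower and 1694 higher, a share near that of the members. With every probe set 2390 of 21956 were lower and 3400 higher. The members' median became -0.832 at the 75th percentile, -0.226 under cyclic loess, -0.59 on the top 10%, -0.212 on the other bright genes and -0.598 with the mean of probe sets. The median difference between genotypes in the db-cAMP effect became -0.00112 under quantile normalization and -0.0415 on the other bright genes, with 1 call without the trend. An equal 75th percentile moved the median of all genes to -0.13 and the top 10% to 0.11 for KO against WT with db-cAMP.

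Single members changed sign as follows. With db-cAMP in WT cells, quantile normalization gave -0.000687 for Rpsa, -0.0218 for Rps3 and -0.0338 for Rps19. The mean of probe sets gave -0.0701 for Rps9, -0.0747 for Rpsa and -0.0811 for Rpl22, and without _x_at and _s_at probe sets Rps9 had -0.998. For KO against WT with vehicle, quantile normalization gave 0.0314 for Rps14, 0.0253 for Rpl13a, 0.0131 for Rpl22 and 0.0115 for Rps27l. Rps27l had 0.0209 under cyclic loess and 0.123 on the other bright genes, where Rpl7l1 had 0.136. With db-cAMP, quantile normalization gave 0.0139 for Rps14, 0.0742 for Rps19, 0.0652 for Rpl13a and 0.012 for Rpl22, the mean of probe sets -0.294 for Rpl27a, and Rpl41 had 1.25 without _x_at and _s_at probe sets. Apart from the choice of probe set, the cause was not tested.

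Leaving out each array in turn gave 0 to 1 calls and medians of 0.00748 to 0.097 with db-cAMP in KO cells, and 3 to 36 calls and 0.122 to 0.397 in WT cells. KO against WT gave 17 to 35 and -0.609 to -0.422 with vehicle, the 17 without KO vehicle replicate 1 and 21 without WT vehicle replicate 2. With db-cAMP it gave 37 to 40 and -0.835 to -0.529. The genotype difference in the db-cAMP effect gave 1 to 5 and -0.329 to -0.0363. Without KO db-cAMP replicate 1 and WT db-cAMP replicate 2 together, an alternative added after seeing the data, there were 0 calls in KO cells and 2 (median 0.122) in WT cells with db-cAMP, and medians of -0.57 for KO against WT with db-cAMP and -0.0656 for the genotype difference.

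With the replicate number as a block the counts were 0 in KO cells and 28 in WT cells for db-cAMP, 40 for KO against WT with db-cAMP, 35 with vehicle and 2 for the genotype difference. Of all 12091 genes, 533 were called higher and 402 lower in KO cells and 1956 and 2228 in WT cells. The all-gene counts were 1910 and 1575 for KO against WT with db-cAMP, 582 and 668 with vehicle and 784 and 589 for the genotype difference. Over all genes tested, deviations of same-numbered arrays correlated at -0.0199 to 0.0206. Noise of dim genes can bring such a correlation near 0, so it does not settle whether the numbers pair the arrays. The median of the bright members was higher on replicate 2 in both WT groups and in KO cells with vehicle. In KO cells with db-cAMP it was lower, 51724 against 54839.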
